A study of Mus musculus with 2 samples.

Results

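Nr1d1, Nr1d2 and YFP were followed through single mouse fibroblasts sorted by the brightness of a Venus reporter. These 3 of the 33757 features in the count table were taken by name. Nr1d1 (ENSMUSG00000020889.12) and Nr1d2 (ENSMUSG00000021775.12) encode the nuclear receptors Rev-erb alpha and Rev-erb beta, and YFP is the feature that collects reads of the Venus transcript. The cells were NIH3T3 fibroblasts, an established mouse line, in the derivative NIH3T3-Rev-VNP1-H2B-iRFP, which carries the Nr1d1-Venus reporter and a histone H2B joined to the near-infrared protein iRFP. All cells had the same treatment: growth without synchronization to 95% confluency over about 5 days, then sorting of 1 cell per well. Libraries were made with FLASH-seq, which copies whole transcripts of each cell. Plate 1 held 384 wells of the high RFP sort and plate 2 held 384 wells of the low RFP sort, each with 96 cells in each of 4 Venus gates, numbered here from 1 (dimmest) to 4 (brightest). The reporter's sequence, and whether the line is 1 clone, are not given in the sources used here. Nothing in the labels says that the plates came from separate cultures, and the plates also differ in the RFP sort. The edgeR p-values rest on how gate differences vary between the plates, after the difference between plates is taken out and variances are shared across genes. The permutation p-values rest on the order of gates within each plate. Neither measures a spread between cultures. On each plate a gate occupied its own block of 6 well columns, in the same place on both, so that gate and position on the plate cannot be told apart.

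Rev-erb alpha and Rev-erb beta are repressors of the circadian clock that bind haem and recruit the NCoR and HDAC3 corepressor complex to DNA. Their half-sites are shared with the ROR receptors, which activate the same genes. In fibroblasts both Rev-erb genes are driven through E-boxes by CLOCK and BMAL1 (the product of Arntl) and through D-boxes by DBP, TEF and HLF, and Rev-erb proteins in turn repress Arntl. Venus is a bright yellow fluorescent protein, and short-lived versions of it are used to follow the rise and fall of Nr1d1 transcription in living cells.

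The 250 bases before the RefSeq transcription start are shown for both Rev-erb genes, because their transcripts differed at the step from gate 1 to gate 2 and the ratio between them changed along the gates. Both come from RefSeq on build GRCm38.p6, minus strand, written 5′ to 3′; the counts were made on GRCm39, per the submitters' processing notes. Nr1d1 lies at chr11:98775378-98775627 and Nr1d2 at chr14:18239107-18239356. Capitals mark the only match in each window to any of the motifs searched on both strands: the E-box CACGTG, the E-prime-box CACGTT, the D-box TTANGTAA, the Rev-erb and ROR half-site AGGTCA, and the cAMP response element TGACGTCA.
Nr1d1: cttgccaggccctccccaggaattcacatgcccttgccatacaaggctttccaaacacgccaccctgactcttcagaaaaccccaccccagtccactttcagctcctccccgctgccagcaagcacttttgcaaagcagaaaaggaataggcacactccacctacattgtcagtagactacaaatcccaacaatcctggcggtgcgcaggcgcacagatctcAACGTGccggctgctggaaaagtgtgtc
Nr1d2: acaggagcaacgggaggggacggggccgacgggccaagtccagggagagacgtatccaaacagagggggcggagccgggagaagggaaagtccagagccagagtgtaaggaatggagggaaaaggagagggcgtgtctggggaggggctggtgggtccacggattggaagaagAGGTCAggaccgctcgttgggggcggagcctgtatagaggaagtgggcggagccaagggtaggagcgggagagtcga
The Nr1d1 window held an E-prime-box on the opposite strand, read here as AACGTG, 28 bases before the start. The Nr1d2 window held the half-site AGGTCA on the printed strand, 77 bases before the start. Among 32851 RefSeq windows of this length, 3.85% held an E-prime-box, 14.0% the half-site, 6.02% an E-box, 2.06% a D-box and 1.55% a cAMP response element. These matches are letters in a window and not shown sites of binding.

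After filtering, 762 of 768 cells remained, 383 on plate 1 and 379 on plate 2, with 151173 to 1618022 counts per cell. Counts of these cells were summed into 8 sums, 1 per plate and gate, of 76042157 to 86612194 counts. All 9 fibroblast markers were detected, Thy1 in 51.8% of cells and each of the others in at least 99%. Col1a1 stood at 8556 and 8347 CPM, which scales the counts of each sum or cell to the same total, on plates 1 and 2. Thy1 stood at 74.8 and 54.0 CPM. Of epithelial markers, Krt14 was found in 72.7% of cells at 36.6 and 30.2 CPM, Cdh1 in 43.4% at 4.15 and 5.37 CPM, and Epcam in 0.131%. Endothelial Pecam1 and Cdh5 were found in 9.45% and 1.05% of cells, and immune Cd68, Cd3e and Ptprc in 11.2%, 0.262% and 0.131%, all below 1 CPM. The part of these transcripts in the results was not tested. The iRFP transcript had a trend of -0.01 log2 per gate (edgeR, adjusted p = 0.940). Median Venus fluorescence was 35.04-fold higher in gate 4 than in gate 1 on plate 1 and 33.4-fold higher on plate 2 in the image channel, and 52.95-fold and 48.8-fold higher in the detector channel.

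YFP and Nr1d1 rose at every gate, with the largest step between gates 1 and 2. YFP stood at 19.5, 93.6, 278 and 678 CPM in gates 1 to 4 of plate 1. On plate 2 it stood at 23.7, 107, 287 and 685 CPM. No gate's values overlapped those of another gate, and gate 4 was 34.8-fold above gate 1 on plate 1 and 28.9-fold above it on plate 2. The steps of YFP were 2.21 ± 0.07, 1.49 ± 0.06 and 1.23 ± 0.06 log2 (SE of the edgeR fit, n = 2 plates). For them edgeR's quasi-likelihood test over 18430 genes gave adjusted p-values of 2.78e-05, 3.37e-04 and 9.46e-04.

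Nr1d1 stood at 60.9, 212, 541 and 1266 CPM in gates 1 to 4 of plate 1 and at 68.7, 221, 536 and 1169 CPM on plate 2. Its gates did not overlap either, and gate 4 was 20.8-fold and 17.03-fold above gate 1. The steps of Nr1d1 were 1.73 ± 0.06, 1.31 ± 0.06 and 1.13 ± 0.06 log2 (SE of the edgeR fit, n = 2 plates), and edgeR gave adjusted p-values of 4.96e-05, 3.37e-04 and 9.46e-04.

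Nr1d2 did not differ detectably between the dimmest gates and rose only from gate 2 upward. It stood at 10.4, 10.8, 23.4 and 34.7 CPM on plate 1 and at 12.3, 13.1, 31.2 and 44.0 CPM on plate 2. Gates 1 and 2 overlapped between the plates, and plate 2 was above plate 1 in every gate. The step from gate 1 to gate 2 was 0.07 ± 0.09 log2 (SE of the edgeR fit, n = 2 plates), with an edgeR adjusted p of 0.828. From gate 2 to gate 3 the step was 1.18 ± 0.09 log2 (edgeR, adjusted p = 0.00504). The last step, 0.49 ± 0.09 log2, had an adjusted p of 0.0772 by edgeR and of 4.88e-04 by DESeq2. The middle step rested on the plate term in the model, and its adjusted p was 0.156 without it.

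Of the 3 transcripts, YFP and Nr1d1 passed the test at the step from gate 1 to gate 2, where 0.147% of all genes were called higher. All 3 passed it from gate 2 to gate 3, where 0.0434% were called higher, and YFP and Nr1d1 passed it from gate 3 to gate 4, where 0.141% were called higher. Over the linear trend of the 4 gates 15.4% of genes were called, and all 3 transcripts were among them, at 1.63 ± 0.02 (YFP), 1.38 ± 0.02 (Nr1d1) and 0.64 ± 0.03 (Nr1d2) log2 per gate. By p they ranked 1, 2 and 8 of 18430 genes tested, and by size of trend 60, 88 and 426. The gates were set on Venus, the protein of the YFP transcript, so the rise of YFP is not independent of the sort. Venus is here a reporter of Nr1d1, and reporter reads may also fall in the Nr1d1 feature. The rise of Nr1d1 is therefore not independent of the sort either. On plate 2 alone the trend of Nr1d2 was 0.67 log2 per gate with an adjusted p of 0.132 in edgeR's linear fit.

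**Figure D1:**
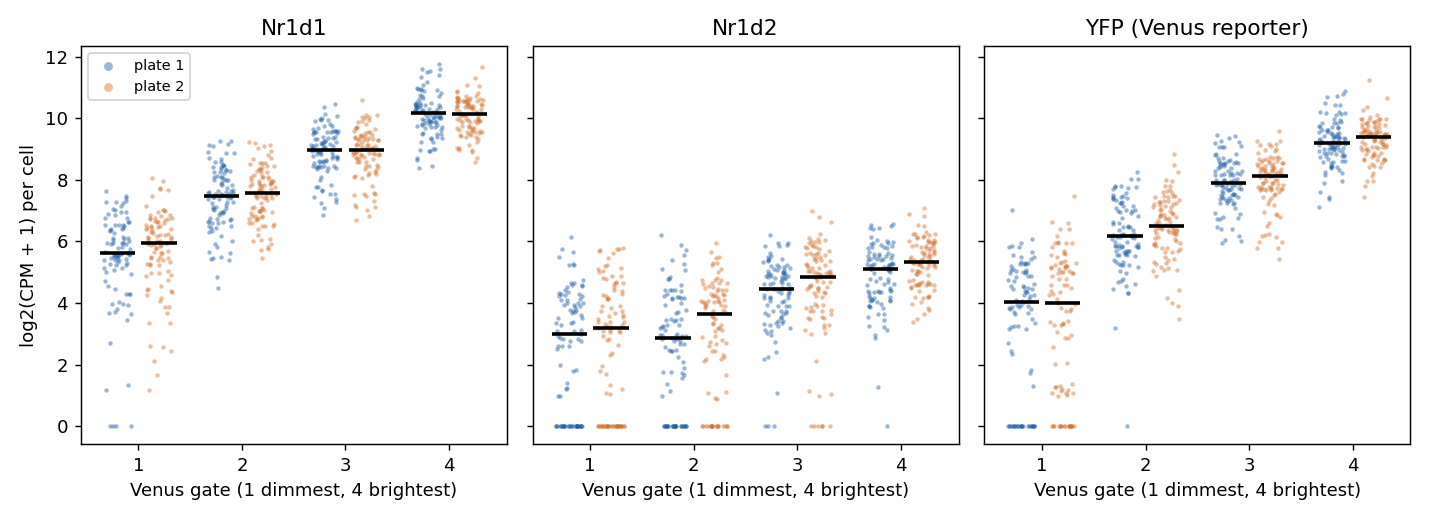
Level of Nr1d1, Nr1d2 and YFP in each cell as log2(CPM + 1) against the Venus gate, with plate 1 in blue, plate 2 in orange and a black bar at the median of each plate and gate. Nr1d1 and YFP climb at every gate, while the Nr1d2 medians of gates 1 and 2 lie close together, at 6.88 and 6.30 CPM on plate 1 and at 8.09 and 11.5 CPM on plate 2.

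Single cells of neighbouring gates overlapped. A cell of gate 2 had more Nr1d1 than a cell of gate 1 in 88.3% of pairs on plate 1 and in 89.4% on plate 2, and a cell of gate 4 had more than a cell of gate 3 in 88.6% and 89.9%. YFP gave 91.9% and 91.2% for gates 1 and 2. For Nr1d2 the share was 49.5% and 54.7% between gates 1 and 2, near what an equal level gives, then 78.2% and 74.6% between gates 2 and 3, and 66.0% and 66.6% between gates 3 and 4.

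Detection followed the levels. Nr1d1 had a read in 91 of 95 gate 1 cells of plate 1 (95.8%, exact 95% binomial interval 89.6 to 98.8) and in every passing cell elsewhere. YFP had a read in 75.8% of gate 1 cells on plate 1 (65.9 to 84.0) and in 82.1% on plate 2 (72.9 to 89.2), and in 99.0% or more of cells in every brighter gate. Nr1d2 had a read in 69.5% of gate 1 cells on each plate (59.2 to 78.5). Its share was 74.0% and 80.9% in gate 2, 96.9% and 93.8% in gate 3, and 99.0% and 100% in gate 4. In cells thinned to 400000 reads, the Nr1d2 shares of gate 1 were 63.2% and 67.4% and those of gate 2 were 68.8% and 77.9%. These intervals cover counting error only, since amplified reads are not independent molecules where no molecular identifier is counted.

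The spread between cells was narrower in gate 4 than in gate 1 for all 3 transcripts, but on plate 1 it did not narrow at every step. The coefficient of variation (CV, the SD over cells divided by the mean CPM) of Nr1d1 was 0.741 and 0.762 in gate 1 and 0.516 and 0.409 in gate 4, on plates 1 and 2. In gate 3 of plate 1 the CV of Nr1d1 was 0.488, below that of gate 4. That of YFP was 1.04 and 1.20 in gate 1 and 0.531 and 0.456 in gate 4. Nr1d2 varied more than Nr1d1 in every gate, and more than YFP in every gate but gate 1 of plate 2, at 1.21 and 1.17 in gate 1, 1.28 and 0.954 in gate 2, 0.647 and 0.773 in gate 3, and 0.618 and 0.554 in gate 4. Counting noise of independent reads would give Nr1d2 a CV of 0.349 and 0.315 in gate 1 and of 0.193 and 0.166 in gate 4. The values measured were well above these. Amplified reads are not independent molecules where no molecular identifier is counted, so noise from amplification is not in the counting values. Its part in the spread was not tested. The total count of a cell had a Spearman correlation with its Nr1d2 CPM between -0.177 and 0.146 within gates. The top 10% of cells held 37.8% and 36.1% of all Nr1d2 reads in gate 1, and 23.7% and 21.8% in gate 4. No test was made of these spreads. Nr1d2 had the lowest level of the 3 transcripts in every gate, and the gates themselves narrow the range of the Nr1d1-Venus reporter. The part of level and of the gates in the CVs was not tested.

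**Figure D2:**
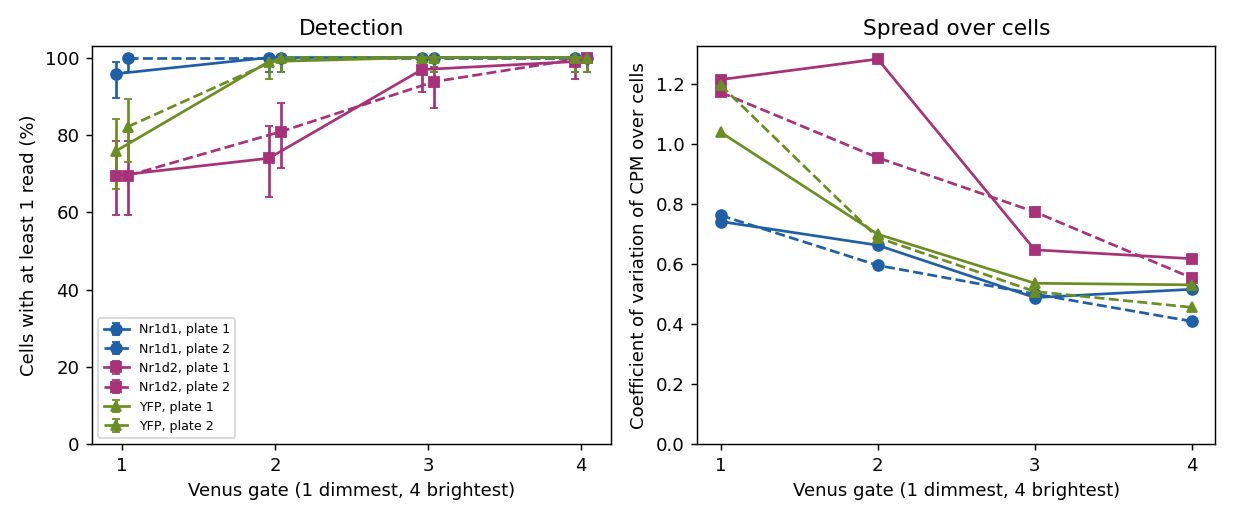
Left, share of cells with at least 1 read of each transcript in each Venus gate, with exact 95% binomial intervals; right, coefficient of variation of CPM over cells; solid lines are plate 1 and dashed lines plate 2. Nr1d2 starts at 69.5% of cells on both plates, and its variation is above that of Nr1d1 in every gate, at a lower level.

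The 3 transcripts did not keep a fixed proportion. Reads of Nr1d1 per read of YFP fell from 3.13 to 2.26, 1.95 and 1.87 over gates 1 to 4 of plate 1. On plate 2 the ratio was 2.89, 2.07, 1.87 and 1.71, in the same order. The trend was -0.24 log2 per gate on each plate, with p = 0.00347 in a two-sided exact permutation test of the gate order within plates. That is the smallest p the design allows, and it was also 0.00347 after Benjamini-Hochberg adjustment over the 3 ratios tested. Without gate 1 the trend was -0.14 log2 per gate, with a permutation p of 0.0556, which is the smallest that 3 gates allow. The gates were set on the protein of the YFP transcript, so a ratio with YFP is not independent of the sort. Permuting the gate order cannot take that dependence out.

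Nr1d1 gained on Nr1d2 most between gates 1 and 2. Reads of Nr1d1 per read of Nr1d2 were 5.83, 19.6, 23.1 and 36.5 on plate 1 and 5.60, 16.8, 17.2 and 26.6 on plate 2. The trend was 0.75 log2 per gate with the same exact permutation p of 0.00347, and between gates 2 and 3 the ratio of plate 2 hardly moved. Exons in GENCODE M21 span 3077 bases for Nr1d1 and 5409 for Nr1d2. Per kilobase Nr1d1 stood at 10.3 and 9.85 times the level of Nr1d2 in gate 1, and 64.2 and 46.8 times in gate 4. Any reporter reads in the Nr1d1 feature are part of these values, so they may not be levels of the gene alone. Reads of Nr1d2 per read of YFP fell from 0.536 to 0.0512 on plate 1 and from 0.516 to 0.0642 on plate 2. The trend was -0.99 log2 per gate (exact permutation p = 0.00347). As the gates were set on an Nr1d1-Venus reporter, neither this ratio nor that of Nr1d1 to Nr1d2 is independent of the sort.

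**Figure D3:**
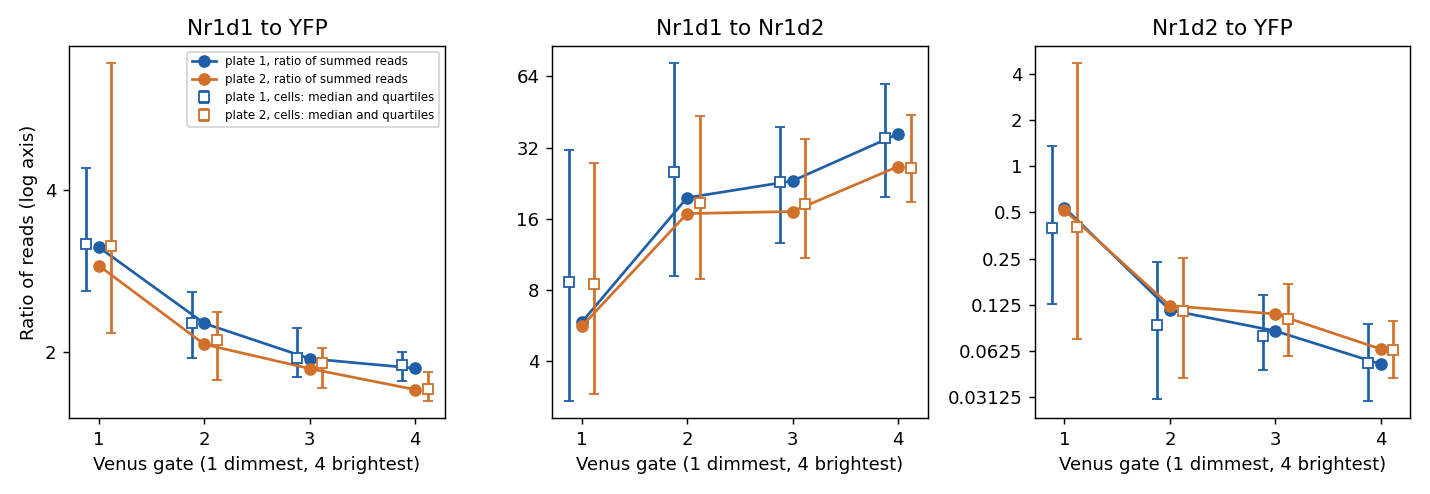
Ratio of reads for each pair of transcripts (log axis) against the Venus gate; filled circles are ratios of reads summed over cells, and open squares with bars are the median and quartiles over cells with at least 10 reads of the pair, after adding 1 read to each. Nr1d1 to YFP falls and Nr1d1 to Nr1d2 rises from gate 1 to gate 4 on both plates.

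Within cells the ratio of Nr1d1 to YFP was narrow and that of Nr1d1 to Nr1d2 was wide. Among cells with at least 10 reads of both, the log2 ratio of Nr1d1 to YFP in gate 4 had an SD of 0.15 on plate 1 and 0.13 on plate 2, where counting alone gives 0.0892 and 0.0836. In gate 1 the SD was 0.54 and 0.53, over 57 and 54 such cells. The log2 ratio of Nr1d1 to Nr1d2 in gate 4 had an SD of 0.95 and 0.90, against 0.31 and 0.28 from counting. Counting here again takes reads as independent and leaves out noise from amplification.

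Nr1d1 lay on a nearly straight line against YFP over all cells of a plate. The line had a slope of 1.81 CPM of Nr1d1 per CPM of YFP on plate 1 and 1.62 on plate 2, and it accounted for 98.3% and 97.5% of the variance of Nr1d1. At a YFP of 0 the fitted line stood at 37.4 and 50.7 CPM of Nr1d1. Without gate 4 it stood at 34.5 and 29.9 CPM, and lines fitted within single gates gave 19.1 to 150.6 CPM, all above 0. Within gate 1 the line accounted for 67.4% and 70.3% of the variance. YFP had no read in 24 cells of plate 1, of which 20 held Nr1d1 reads, and the median Nr1d1 over all 24 was 13.5 CPM. It had no read in 17 cells of plate 2, and all 17 held Nr1d1 reads, with a median of 20.5 CPM. No read of Nr1d1 was found in 4 cells, all on plate 1 and all without YFP, and no read of Nr1d2 in 58 and 53 cells. A reporter that carries Nr1d1 sequence would add reads to the Nr1d1 feature, and such reads cannot be told apart from those of the gene in these counts.

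**Figure D4:**
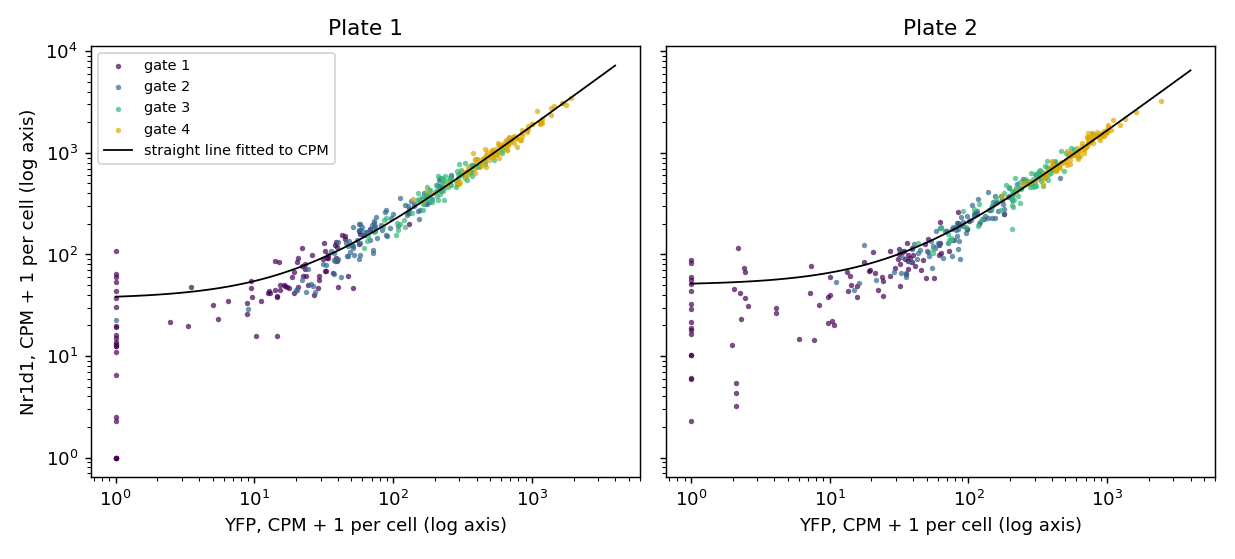
Nr1d1 against YFP in each cell, as CPM + 1 on log axes, coloured by Venus gate, with the straight line fitted to CPM on each plate (curved here by the log axes). Cells of all gates follow 1 band, which is tight in gates 3 and 4 and widens below about 10 CPM of YFP, where cells without YFP still hold Nr1d1 reads.

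After cells were ranked within their gate, so that differences between gates no longer counted, Nr1d1 and YFP kept a Spearman correlation of 0.924 over 383 cells of plate 1 and 0.907 over 379 cells of plate 2. Nr1d1 and Nr1d2 had 0.111 and 0.213 by the same measure, against 0.535 and 0.598 over whole plates. Nr1d2 and YFP had 0.0925 and 0.121, and in gate 1 alone -0.101 and -0.285. These are descriptions of cells that share a plate, a gate and a library preparation.

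Thra, the thyroid hormone receptor gene that overlaps Nr1d1 on the opposite strand, shares 263 of the 3077 exonic bases of Nr1d1 (8.55%). The use of strand in counting is not given in the sources used here, so reads of that overlap cannot be told apart. Thra had a trend of 0.02 ± 0.02 log2 per gate (edgeR, adjusted p = 0.672), and stood between 139 and 165 CPM in all 8 sums. Within gates, however, Thra correlated with Nr1d1 at 0.290 and 0.321 and with YFP at 0.322 and 0.353. Whether the reporter shares sequence with Thra is not known here. Its correlation with Nr1d2 was -0.0689 and -0.0911.

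Venus fluorescence of the same cell followed YFP and Nr1d1 over whole plates and much less within gates. The Spearman correlation with the recorded image-channel intensity was 0.908 and 0.907 for YFP, 0.899 and 0.897 for Nr1d1 and 0.534 and 0.564 for Nr1d2, on plates 1 and 2. Inside single gates it lay between 0.148 and 0.538 for YFP, between 0.142 and 0.562 for Nr1d1, and between -0.127 and 0.243 for Nr1d2. The gates themselves narrow the range of Venus, to between 1.66-fold and 2.68-fold from the 10th to the 90th percentile of cells. Transcript and fluorescence did not rise in step. For each doubling of median Venus, YFP rose by 1.59 and 1.43 log2 from gate 1 to gate 2 but by 0.60 and 0.65 log2 from gate 3 to gate 4. Nr1d1 rose by 1.26 and 1.11 log2 per doubling at the first of these steps and by 0.57 and 0.58 at the last, and Nr1d2 by 0.03 and 0.07 at the first, 0.72 and 0.78 at the middle and 0.26 and 0.25 at the last. No background was subtracted here from the recorded intensities, and 2 cells of plate 1 stood at or below 0. The part of background in these values was not tested. The values also depend on the channel. By the detector channel YFP rose by 1.34 and 1.19 log2 per doubling at the first step and by 0.56 and 0.63 at the last, and Nr1d1 by 1.06 and 0.93 at the first and 0.53 and 0.56 at the last.

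The partners and regulators of Rev-erb were read from 7 lists by role, 42 genes in all, of which 40 were tested. Along the gates 12 were higher and 4 lower toward bright Venus, against 6.78% higher and 8.64% lower of all genes. The median trend of the 40 was 0.03 log2 per gate against 0.00 for all genes. Without TMM normalization, 57.8% of all called genes were higher in place of 44.0%, and 15 listed genes were higher and 3 lower. These genes were listed for their known link to Rev-erb, and their trends in these cells were known beforehand.

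None of the corepressor genes Ncor1, Hdac3, Tbl1x, Tbl1xr1 and Gps2 was called by edgeR, with trends from -0.08 (Hdac3) to 0.05 (Tbl1xr1) log2 per gate. At an unadjusted p under 0.05 Ncor1 and Hdac3 were lower, and DESeq2 called both, with adjusted p-values of 0.0390 and 0.0493. Ncor1, the scaffold of the complex, stood at 166, 167, 166 and 154 CPM on plate 1. Rora, a receptor that competes for the same half-sites, rose by 0.27 ± 0.03 log2 per gate.

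The listed repressors that act on E-boxes were higher toward bright Venus, and the activators were not. Of 12 listed, 8 were higher, all repressors (Per1, Per2, Per3, Cry1, Cry2, Bhlhe40, Bhlhe41 and Ciart). The activator Arntl was lower at -0.72 ± 0.03 log2 per gate. The activators Clock, Npas2 and Arntl2 were not called, at -0.08, -0.18 and -0.02 log2 per gate, and Npas2 was barely detected. Arntl, a target that Rev-erb represses, stood at 50.2, 40.7, 18.5 and 12.1 CPM on plate 1 and at 43.1, 40.6, 17.04 and 12.3 CPM on plate 2. Its largest fall lay between gates 2 and 3, where all 3 transcripts rose. Of the 5 targets read through the Rev-erb half-site, Arntl and Nfil3 were lower and Cry1 was higher, at 0.13 ± 0.03 log2 per gate. Without the plate term the calls of Cry1 and Nfil3 were lost in edgeR, with adjusted p-values of 0.159 and 0.0655.

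Among the 4 D-box factors, Dbp and Tef rose, at 0.74 ± 0.02 and 0.54 ± 0.02 log2 per gate, and Nfil3, which represses through the same element, fell by 0.41 ± 0.08. Dbp stood at 17.4, 20.8, 49.9 and 73.1 CPM on plate 1, with little change before gate 3, and at 19.2, 23.3, 56.9 and 82.5 CPM on plate 2. Of 6 tested genes that act on Rev-erb stability edgeR called Cdk1, also a gene of dividing cells, at 0.34 ± 0.08 log2 per gate, and its levels did not step evenly, with 22.3, 72.2, 32.7 and 60.0 CPM on plate 2. Mycbp2, of a ubiquitin ligase, had a trend of 0.10 ± 0.03 log2 per gate. The trend had an adjusted p of 0.0614 by edgeR, 0.0448 without TMM and 0.0209 by DESeq2. Mycbp2 was called higher at the step from gate 1 to gate 2, at 0.67 ± 0.09 log2 (edgeR, adjusted p = 0.0416). That call was lost without TMM (adjusted p = 0.053) and kept by DESeq2 (2.39e-07). The later steps of Mycbp2 were -0.04 ± 0.09 and -0.30 ± 0.09 log2 (edgeR, adjusted p = 0.946 and 0.177). Of 10 genes of haem synthesis and breakdown, haem being the Rev-erb ligand, Ppox and Uros were lower, at -0.24 ± 0.03 and -0.11 ± 0.03 log2 per gate, and edgeR called none higher. Cpox and Urod, enzymes of haem synthesis, had trends of 0.07 and 0.06 log2 per gate (edgeR, adjusted p = 0.0545 and 0.0604). They were called higher without TMM (0.0306 and 0.0314) and by DESeq2 (0.0221 and 0.0170). The call of Uros was lost without TMM (adjusted p = 0.0696), and those of Cdk1 and Uros were lost in edgeR's linear fit of the gates (0.180 and 0.129).

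Among single cells the nearest genes to Nr1d2 and to Nr1d1 differed. Ranked within gates over 12994 genes detected in at least 20% of cells, Nr1d2 was most like Tef (Spearman 0.298 on plate 1 and 0.349 on plate 2), Dbp (0.274 and 0.310), Klhl21 (0.167 and 0.170), Ciart (0.154 and 0.207) and Per3 (0.150 and 0.218), and most opposed to Arntl (-0.244 and -0.251). By the same measure Nr1d1 stood at 0.0174 and 0.0412 with Tef, at 0.170 and 0.209 with Dbp and at 0.0285 and 0.0356 with Arntl. Nr1d1 was most opposed to Cry1, at -0.271 and -0.348, and Nr1d2 stood at -0.157 and -0.102 with Cry1. Over whole plates, where Cry1 had the small upward trend given above and no single step that passed the test, Nr1d1 stood at -0.0201 and -0.0689 with it. Whether these correlations differ between Nr1d1 and Nr1d2 was not tested.

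After YFP, the features nearest to Nr1d1 within gates were the unnamed ENSMUSG00000142959.1 (0.367 and 0.313), Thra, Bcar1 (0.245 and 0.212), Hsbp1 (0.232 and 0.202) and Map1lc3b (0.193 and 0.199). The last 3 of these lie on chromosome 8, while Nr1d1 lies on chromosome 11. Of the 20 genes most like YFP within gates 11 lie on chromosome 8, of the 20 most like Nr1d1 7 do, and of the 20 most like Nr1d2 1 does, where 5.39% of the ranked genes with a known place are on that chromosome.

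Of these chromosome 8 genes, 10 of the 11 like YFP (all but Junb) and 5 of the 7 like Nr1d1 (all but Junb and Col4a1) lay in 1 stretch, whose ends were set by eye after the values were seen, and the 1 like Nr1d2 (B3gnt9) lay outside it. From Ripor1 to Slc7a5 GENCODE M21 places 100 genes with a mean of at least 10 CPM, and 95 of them were higher in gate 4 than in gate 3 on both plates. Their median step was 0.40 log2 (1.32-fold) on plate 1 and 0.33 log2 (1.26-fold) on plate 2. For 8062 genes of other chromosomes the medians were 0.00 and 0.02 log2, and 35.4% were higher on both plates. The 20 genes just before the stretch had medians of 0.08 and 0.08 log2, and the 20 just after it, from Banp on, had -0.07 and -0.11 log2. The earlier steps of the stretch were small, at 0.05 and 0.04 log2 from gate 1 to gate 2 and 0.07 and 0.09 log2 from gate 2 to gate 3.

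In single cells the summed level of the stretch had a median of 6975 CPM in gate 3 (quartiles 6237 and 10502) and of 10989 CPM in gate 4 (8128 and 12184) on plate 1. On plate 2 the medians were 7230 CPM (6583 and 9870) and 11240 CPM (7968 and 12304). Within gate 1 this sum correlated with YFP at 0.518 and 0.571, with Nr1d1 at 0.455 and 0.405 and with Nr1d2 at -0.241 and -0.270. The pattern was not the same in the other gates: with YFP the sum stood at -0.0927 and -0.0807 in gate 2, 0.309 and 0.203 in gate 3, and 0.0534 and 0.120 in gate 4. With Nr1d2 it stood at 0.208 and 0.0581 in gate 2, 0.0698 and -0.0522 in gate 3, and -0.0222 and -0.183 in gate 4. The part of this stretch in the levels of YFP and Nr1d1 was not tested.

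**Figure D5:**
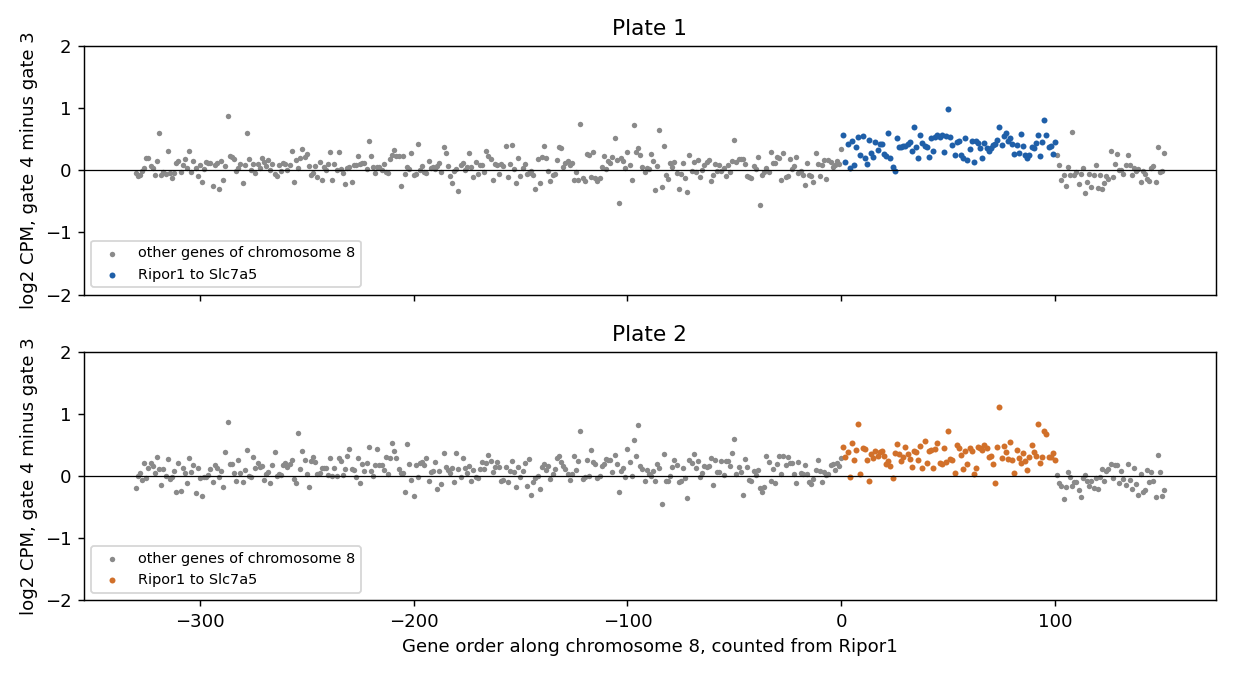
Log2 CPM of gate 4 minus gate 3 for each gene of chromosome 8 with a mean of at least 10 CPM, in gene order counted from Ripor1, on plate 1 (top) and plate 2 (bottom). Genes from Ripor1 to Slc7a5, coloured, lie above 0 on both plates for 95 of 100 genes, and their neighbours on either side lie nearer to 0.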

How the data were processed

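Single-cell libraries of 1 reporter line on 2 plates were analysed. The authors deposited whole-number raw counts for each gene in each cell; reads were aligned with STAR 2.7.11a to GRCm39 and the notes also name SAMtools, bedtools and HTSeq, per the submitters' processing notes. Fluorescence per cell was deposited by the authors as intensity in arbitrary units. Strand use, molecular identifiers and compensation are not given in the sources used here. Cells with at least 1000 genes, 0.1 of the plate's median total and at most 25% mitochondrial counts were kept. No doublet caller was run, since each well received 1 sorted cell.

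Counts were summed per plate and gate and fitted in edgeR 4.0.16 (R 4.3.3; TMM, filterByExpr, quasi-likelihood F-test, gate and plate as factors, 3 residual degrees of freedom, Benjamini-Hochberg adjustment over all genes tested, threshold 0.05). The trend is the linear contrast over the gates in log2 per gate. Ratios were tested by exact permutation. The scripts were tested on simulated data. Alternatives used DESeq2 1.42.0, other filters, thinned cells, no plate term and single plates. The design had assumed both RFP sorts on each plate; with 1 sort per plate, the sums stayed per plate and Venus gate. Plate numbers come from the labels, and the plate was kept in the model because all gates of a number share a plate.

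The transcripts and gene lists were chosen with earlier results of these data known. Of the listed genes, 1 is not reported here. Named genes were the 3 transcripts, list members by role, the gene overlapping Nr1d1, and the 5 genes most alike or opposed over cells; the chromosome 8 stretch was described after its values were seen. Gene symbols, overlaps and gene order came from GENCODE M21 and promoter sequences from RefSeq on GRCm38.p6.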

Additional observations from a re-analysis of the deposited data

How the results depend on the processing

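Of 147 recomputed values for 23 results, 121 were labelled unchanged and none reversed. Tested values had to keep their direction and side of the threshold, and counts of called genes had to stay within a set fold. Untested values had to move by less than the plates differed. For gate steps on single plates that last rule could hardly fail, since the same 2 plates set it. The replicate block here is the plate term: without it 1683 genes were called along the gates in place of 2843, and the step of Nr1d2 from gate 2 to gate 3 was 1.19 log2 with an adjusted p of 0.156 by edgeR. No other call on Nr1d1, Nr1d2 or YFP changed without it. With the gates as a number, 1858 genes were called. Single plates, with 2 residual degrees of freedom in edgeR, called 4 to 264 genes and 0 to 9 listed genes in place of 16, and gave an Nr1d2 trend of 0.60 to 0.67 log2 per gate. The last step of Nr1d2 passed the threshold with DESeq2 (0.49 log2), without the count filter (0.48 log2) and in thinned cells (0.53 log2). On single plates the ratio trends were -0.24 to -0.24 (Nr1d1 to YFP), 0.68 to 0.82 (Nr1d1 to Nr1d2) and -1.06 to -0.92 (Nr1d2 to YFP) log2 per gate, where the smallest exact permutation p is 0.0833. In the same order they were -0.14, 0.39 and -0.53 without gate 1 and -0.33, 0.90 and -1.23 without gate 4, where it is 0.0556. The mean CV of YFP was 0.717 in thinned cells in place of 0.707. With the detector channel, the mean Spearman correlation with Venus was 0.901 for Nr1d1 and 0.911 for YFP, in place of 0.898 and 0.907. The cause of these shifts was not tested, beyond the fewer gates or plates. Depth limits Nr1d2 most, with a median of 5.0 to 9.5 reads per cell in gates 1 and 2.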
